A study of Mus musculus with 14 samples.

Results

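Left ventricles of mice under a regime used as a model of heart failure in which the ejection fraction is preserved (HFpEF), given a virus with a scrambled hairpin, were compared with left ventricles of mice on a standard diet. The comparison takes in the 4 libraries titled HFpEF-scr and the 5 titled Control, 9 of the 14 libraries of the series, which were chosen by their titles. Poly(A) RNA was sequenced and counted per gene. Per the labels, all mice had the genotype C56Bl6. The controls had a control diet for 10 weeks, with no virus named. HFpEF-scr mice ate a High-Fat diet with L-NAME, an inhibitor of nitric oxide synthases, for 6 weeks, and carried AAV-scramble-sh, an adeno-associated virus with a scrambled short hairpin, for 4 weeks. Every HFpEF-scr library came from the fat, the L-NAME and the virus combined, and the labelled diet time also differs between the groups. The shares of these cannot be told apart. The labels name neither the promoter nor the serotype of the virus. Age and sex are not in the labels used here, and nothing says that each library of a group came from its own animal, so a p covers only the spread between these libraries, which may be technical.

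Heart muscle draws most of its energy from fatty acids. These enter through the transporter CD36, are held by binding proteins, are joined to coenzyme A, pass into mitochondria on carnitine and are shortened there by beta-oxidation. Nuclear receptors of the PPAR family raise many of these genes when fatty acids are plentiful, and kinases of pyruvate dehydrogenase then hold back the burning of glucose. The combination of a fatty diet with a blocked supply of nitric oxide is used in mice because the ventricle stiffens while its ejection fraction stays normal.

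The 9 libraries held between about 13174000 and 21247000 counts, and 13588 of 24054 genes were tested. Levels are CPM, that is counts scaled to a common library total after TMM scaling. Changes are log2 fold changes ± SE, positive where HFpEF-scr was higher, and a gene is said to have risen or fallen where its p, adjusted over all tested genes, was under 0.05. Y-linked genes were seen in all 9 libraries, and Nnt, which part of the C57BL/6 stocks carry with a deletion, was at 1277 to 1528 CPM (scaled by the library total alone) in each. Of 5 genes listed as differing between C57BL/6 stocks, 1 rose and 1 fell (20% each, beside 3.66% and 3.70% of all genes tested). A difference of stock between the groups was not tested. The 13 cardiomyocyte markers summed to between 126840 and 130658 CPM in the controls and between 113681 and 120620 CPM in HFpEF-scr, so that the groups did not overlap. The 15 fibroblast markers summed to between 2145 and 2629 CPM in the controls and between 2330 and 2891 CPM in HFpEF-scr, and the 19 of macrophages and monocytes to between 292 and 396 CPM in the controls and between 270 and 360 CPM in HFpEF-scr. Markers of T, B and mast cells and of neutrophils stayed under 16 CPM in sum in each library. In such pieces of tissue, fewer cells of a type and less RNA per cell cannot be told apart.

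Some libraries stood apart. The mean log2 CPM of 30 immediate early genes, which answer to handling and stress within minutes, was 4.47, 3.59, 4.43, 4.82 and 5.72 in the controls and 6.02, 6.26, 4.62 and 5.45 in HFpEF-scr, so HFpEF-scr 1 and 2 were above every control. A clock score, the mean of Dbp, Tef, Ciart and the Per and Nr1d genes less that of Arntl, Npas2, Clock and Nfil3 on the log2 scale, was 1.37 in Control 1 and 3.26 to 4.00 in the other controls, and 2.32, 2.02, 2.97 and 3.64 in HFpEF-scr. In HFpEF-scr 1 the globin Hbb-b1 stood at 2393 CPM (scaled in the same way), against 208 to 541 in the other 8 libraries. Results were also computed with each score as a covariate, without each library in turn and without HFpEF-scr 1 and 2, and in 8 further settings of scaling, filter, tool or block. Where 1 of the 9 refits without a library, or of the 11 other settings, ended a named call, this is stated beside it.

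**Figure D1:**
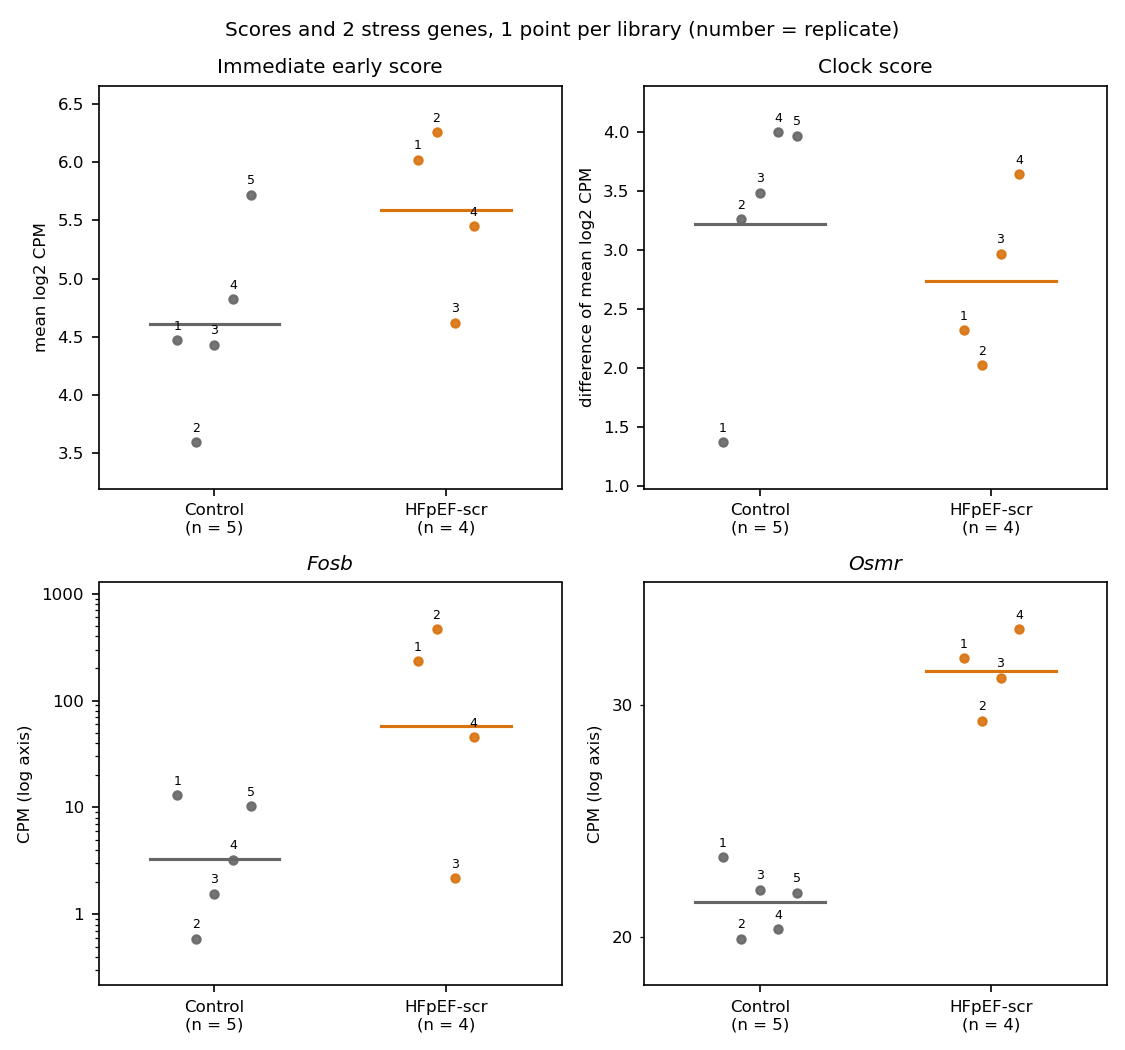
Immediate early score, clock score and the levels of Fosb and Osmr in the 9 libraries. Each point is 1 library, numbered by its replicate, and short bars are group means (geometric in the lower panels). The upper panels are on the log2 scale, the lower ones in CPM on a log axis. HFpEF-scr 1 and 2 lie above every control in the immediate early score, Fosb spans 2.18 to 468 CPM within HFpEF-scr, and Osmr does not overlap between the groups.

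Of the 13588 genes, 1001 changed (7.37%), 498 of them up (3.66%) and 503 down (3.70%). The counts of rises and falls in lists and families below are to be read beside these shares. Changes were small. Only 29 rises and 36 falls reached 2-fold, while 263 rises and 216 falls were under 1.25-fold, and the median called rise was 0.31 log2 and the median called fall -0.35 log2, beside 0.00 over all genes. The groups did not overlap in 1214 genes (8.93%), of which 698 were called. Calls were most frequent among abundant genes: of those above 1000 CPM, 10.4% rose and 14.2% fell, against 1.08% and 2.84% of those between 1 and 10 CPM. The genes that fell held 142610 CPM in the controls and 121060 CPM in HFpEF-scr, and those that rose 66147 and 84423 CPM. With the immediate early score as a covariate 400 genes were called, and 560 without HFpEF-scr 1 and 2. The count was 643 without Control 2, 537 without Control 3, 598 without HFpEF-scr 2, 546 without HFpEF-scr 4 and 504 in a fit of the 9 libraries alone. Among the 1753 genes of at least 100 CPM, the 95% interval of the change lay within 1.25-fold either way in 1440 (82.1%).

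**Figure D2:**
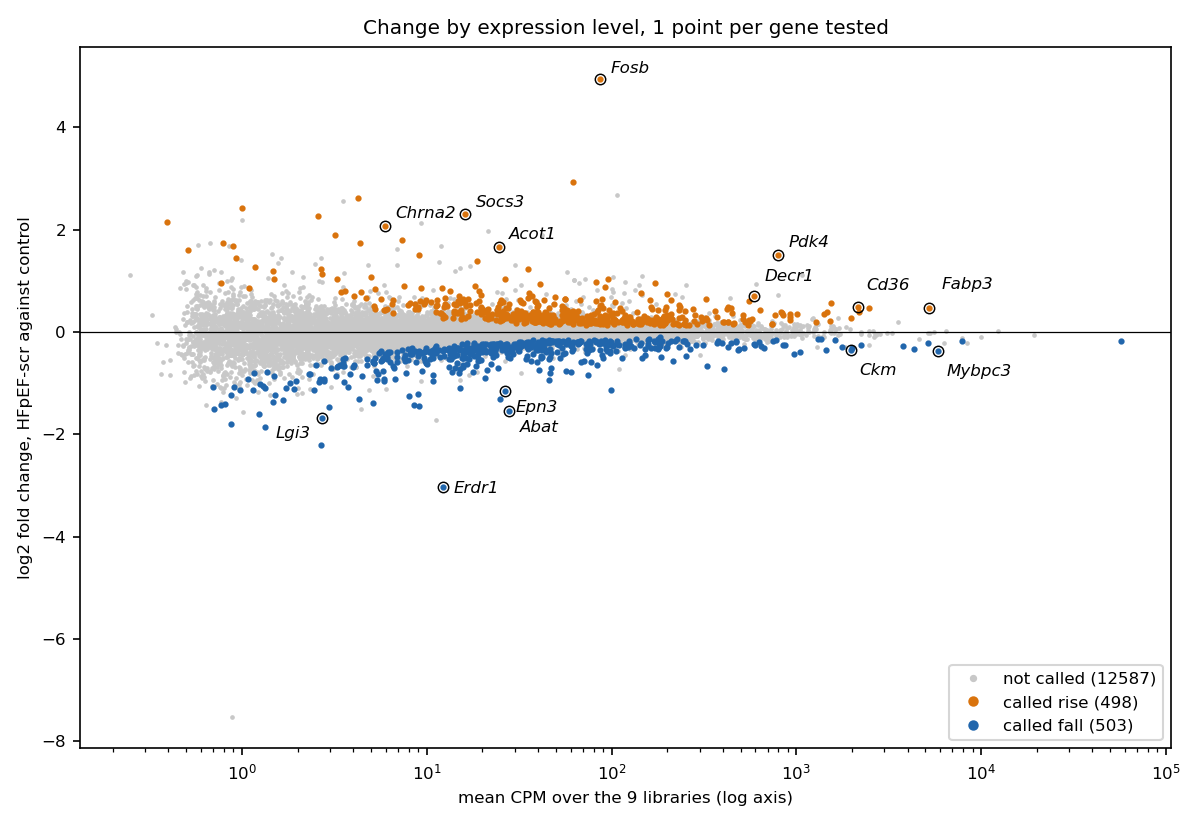
Log2 fold change of HFpEF-scr against control (vertical axis) by mean CPM over the 9 libraries (horizontal, log axis) for the 13588 genes tested. Called rises are orange, called falls blue and other genes grey, and named genes are marked. Most called genes lie within 1 log2 of 0, and abundant genes such as Cd36, Fabp3, Ckm and Mybpc3 were called at changes under 0.50 log2.

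Most listed genes of mitochondrial fatty acid oxidation rose. In the list of the carnitine shuttle and mitochondrial beta-oxidation, 15 of 24 rose and 0 fell, with a median of 0.26 log2 beside 0.00 over all genes. Decr1, the reductase that lets unsaturated fatty acids into beta-oxidation (GRCm38 chromosome 4 at 15917240 to 15945507, minus strand), had 441, 411, 462, 529.5 and 471 CPM in controls 1 to 5 and 693, 770.1, 736 and 817 CPM in HFpEF-scr 1 to 4. No HFpEF-scr library came near the highest control, and the rise was 0.70 ± 0.06 log2 (adjusted p = 1.10e-05). Hadha and Hadhb, the subunits of the trifunctional protein that runs the last steps on long chains, rose by 0.46 ± 0.06 (adjusted p = 0.000520) and 0.39 ± 0.05 (adjusted p = 0.000137) log2. Etfdh, which hands the electrons on to ubiquinone, rose by 0.39 ± 0.05 (adjusted p = 0.000191) log2, Acadvl, the dehydrogenase of very long chains, by 0.35 ± 0.05 (adjusted p = 0.000293) log2 and Slc25a20, the carrier of acylcarnitine, by 0.42 ± 0.07 (adjusted p = 0.00198) log2. Other rises, named after their values were seen, were those of the carnitine acyltransferases Cpt1b (0.30 ± 0.05), Cpt2 (0.44 ± 0.06) and Crat (0.33 ± 0.05) and of the long-chain dehydrogenase Acadl (0.39 ± 0.06), all in log2. Without 1 library 13 to 17 genes of the list rose, and 12 did with the immediate early score as a covariate. In the annotation 42.9% of Acadvl's exon bases are shared with another gene, and the counting is not stated to use strand.

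At the cell surface and in the cytosol, 6 of 18 genes of uptake and activation rose and 0 fell, with a median of 0.22 log2. The rises numbered between 4 without Control 2, Control 5, HFpEF-scr 2 or HFpEF-scr 4 and 7 without Control 4 or HFpEF-scr 1, and 3 with the immediate early covariate. Cd36 was at 1829, 1716, 1808, 1976 and 1788 CPM in the controls and at 2384, 2695, 2519 and 2660 CPM in HFpEF-scr. Fabp3, the fatty acid binding protein of muscle, had 4633, 4039.6, 4186, 4832 and 4677 CPM in the controls and 6250.3, 6261, 6016 and 6134 CPM in HFpEF-scr. Neither gene had an HFpEF-scr library within the range of the controls, and the rises were 0.49 ± 0.05 log2 (adjusted p = 2.90e-05) and 0.46 ± 0.05 log2 (adjusted p = 5.50e-05). Dbi, which binds acyl-CoA esters, rose by 0.59 ± 0.06 (adjusted p = 6.63e-05) log2. Acsl1, the main acyl-CoA synthetase of heart, rose by 0.22 ± 0.05 (adjusted p = 0.0108) log2, with its lowest HFpEF-scr library just under the highest control, and lost its call in 1 of 11 other settings (adjusted p up to 0.0741, with the immediate early covariate).

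In peroxisomes, where very long chains begin to be oxidised, 6 of 21 genes rose and 1 fell, while the median of the list was 0.01 log2. Among the rises were those of Cat, the catalase that removes hydrogen peroxide, at 0.48 ± 0.06 log2 (adjusted p = 0.000446), of Hsd17b4 at 0.22 ± 0.04 log2, of the fatty acid importer Abcd3 at 0.30 ± 0.06 log2, of Pex11a, which divides peroxisomes, at 0.60 ± 0.11 log2, and of Scp2, named after its values were seen, at 0.20 ± 0.04 log2. Pex11a was at 8.81, 7.20, 7.57, 7.14 and 6.68 CPM in the controls and at 9.29, 13.1, 12.04 and 11.1 CPM in HFpEF-scr, with HFpEF-scr 1 barely above Control 1. Amacr, the racemase for branched chains, also named afterwards, fell, with a log2 change of -0.23 ± 0.05, and its call was lost in 3 of 9 refits without 1 library (adjusted p up to 0.0674, without HFpEF-scr 4) and 2 of 11 other settings (adjusted p up to 0.0745, with the immediate early covariate).

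Of 12 acyl-CoA thioesterases tested, which release free fatty acids again, 2 rose and 1 fell (median 0.04 log2), and the list held larger changes. Acot1, the cytosolic one (GRCm38 chromosome 12 at 84009490 to 84018371, plus strand), had 14.2, 9.13, 11.2, 17.4 and 10.6 CPM in the controls and 30.05, 57.8, 32.2 and 38.3 CPM in HFpEF-scr, a rise of 1.65 ± 0.19 log2 (adjusted p = 8.24e-05). Its mitochondrial neighbour Acot2 had 117, 99.4, 116, 162 and 113 CPM and 193, 271, 229 and 247 CPM, a rise of 0.95 ± 0.11 log2 (adjusted p = 0.000114). In both, every HFpEF-scr library was above every control and Control 4 was the highest control. Both genes are close copies of each other, so the division of reads between them is uncertain. Them6, a further member of the list, fell, with a log2 change of -0.46 ± 0.10 (adjusted p = 0.0157), and its call was lost in 2 of 11 other settings (adjusted p up to 0.0780, with the immediate early covariate).

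Among 20 genes of lipid droplets, 5 rose (25%) and 1 fell (5%), beside 3.66% and 3.70% of all genes. Refits of the lipid droplet list gave rises numbering between 1 without Control 2 or Control 5 and 6 without HFpEF-scr 1, and 1 with the immediate early covariate. Cidea, which enlarges droplets, had 30.4, 24.6, 26.5, 31.7 and 31.02 CPM in the controls and 49.05, 47.9, 45.5 and 46.3 CPM in HFpEF-scr, narrow groups that did not overlap, and rose by 0.71 ± 0.07 log2 (adjusted p = 2.87e-05). Lipe and Mgll, lipases of diglycerides and monoglycerides, rose by 0.43 ± 0.10 (adjusted p = 0.0223) and 0.48 ± 0.13 (adjusted p = 0.0355) log2, and Plin5, the coat protein that ties droplets to mitochondria, by 0.40 ± 0.10 (adjusted p = 0.0249) log2. Plin3, another coat protein, fell, with a log2 change of -0.25 ± 0.07 (adjusted p = 0.0331). The call of Lipe was lost in 4 of 9 refits without 1 library (adjusted p up to 0.0664, without HFpEF-scr 2) and 3 of 11 other settings (adjusted p up to 0.166, without HFpEF-scr 1 and 2). That of Plin5 was lost in 5 of 9 refits without 1 library (adjusted p up to 0.0793, without HFpEF-scr 2) and 3 of 11 other settings (adjusted p up to 0.157, with the immediate early covariate). That of Mgll was lost in 4 of 9 refits without 1 library (adjusted p up to 0.0790, without Control 3) and 3 of 11 other settings (adjusted p up to 0.121, with the immediate early covariate), and that of Plin3 in 6 of 9 refits without 1 library (adjusted p up to 0.0891, without HFpEF-scr 2) and 3 of 11 other settings (adjusted p up to 0.101, with the immediate early covariate). Mgll stood at 342, 191, 196 and 204 CPM in HFpEF-scr 1 to 4, and without HFpEF-scr 1 its change was 0.23 log2 (adjusted p = 0.0180). Cidea and Lipe are also markers of fat cells. The 12 adipocyte markers summed to between 80.6 and 105 CPM in the controls and between 109 and 134 CPM in HFpEF-scr, without overlap. This sum holds Cidea and Lipe themselves, so it is no separate measure of fat cells. Of the 12 markers 4 were tested and 2 rose, and Retn was at 0 in all 9 libraries. The part of fat cells in the rises of Cidea and Lipe was not tested.

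Further genes of lipid handling were among those with the smallest p. Retsat, which saturates retinol, had 45.7, 40.1, 41.7, 51.7 and 43.97 CPM in the controls and 71.8, 74.04, 66.6 and 67.8 CPM in HFpEF-scr and rose by 0.65 ± 0.06 log2 (adjusted p = 3.29e-05), with 18.4% of its exon bases shared with another gene. Ephx2, the hydrolase of fatty acid epoxides, rose by 0.65 ± 0.07 log2 (adjusted p = 3.61e-05), from 259 ± 28.8 CPM (SD, n = 5) to 408 ± 21.9 CPM (SD, n = 4). Ech1, an isomerase of unsaturated chains, rose by 0.57 ± 0.07 log2 (adjusted p = 0.000183), and the phospholipid acyltransferases Lpcat3 and Agpat3 by 0.46 ± 0.06 log2 (adjusted p = 0.000367) and 0.48 ± 0.06 log2 (adjusted p = 0.000384). These 5 genes were taken only from called genes whose groups did not overlap, so the lack of overlap follows from that choice. All kept their calls in each refit without 1 library and in the other settings.

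The regulators that govern these genes were not called: of 22 genes for PPAR, PGC-1 and ERR factors, their partners and corepressors, 0 rose and 0 fell, with a median of 0.04 log2. The member with the smallest p was the corepressor Ncor1, at 0.14 ± 0.06 log2 (adjusted p = 0.143). Of the 22, 2 had an unadjusted p under 0.05, DESeq2 called 0 and limma voom 0. Without HFpEF-scr 1 edgeR called 1 rise and 1 fall among them, and without HFpEF-scr 3 1 rise.

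**Figure D3:**
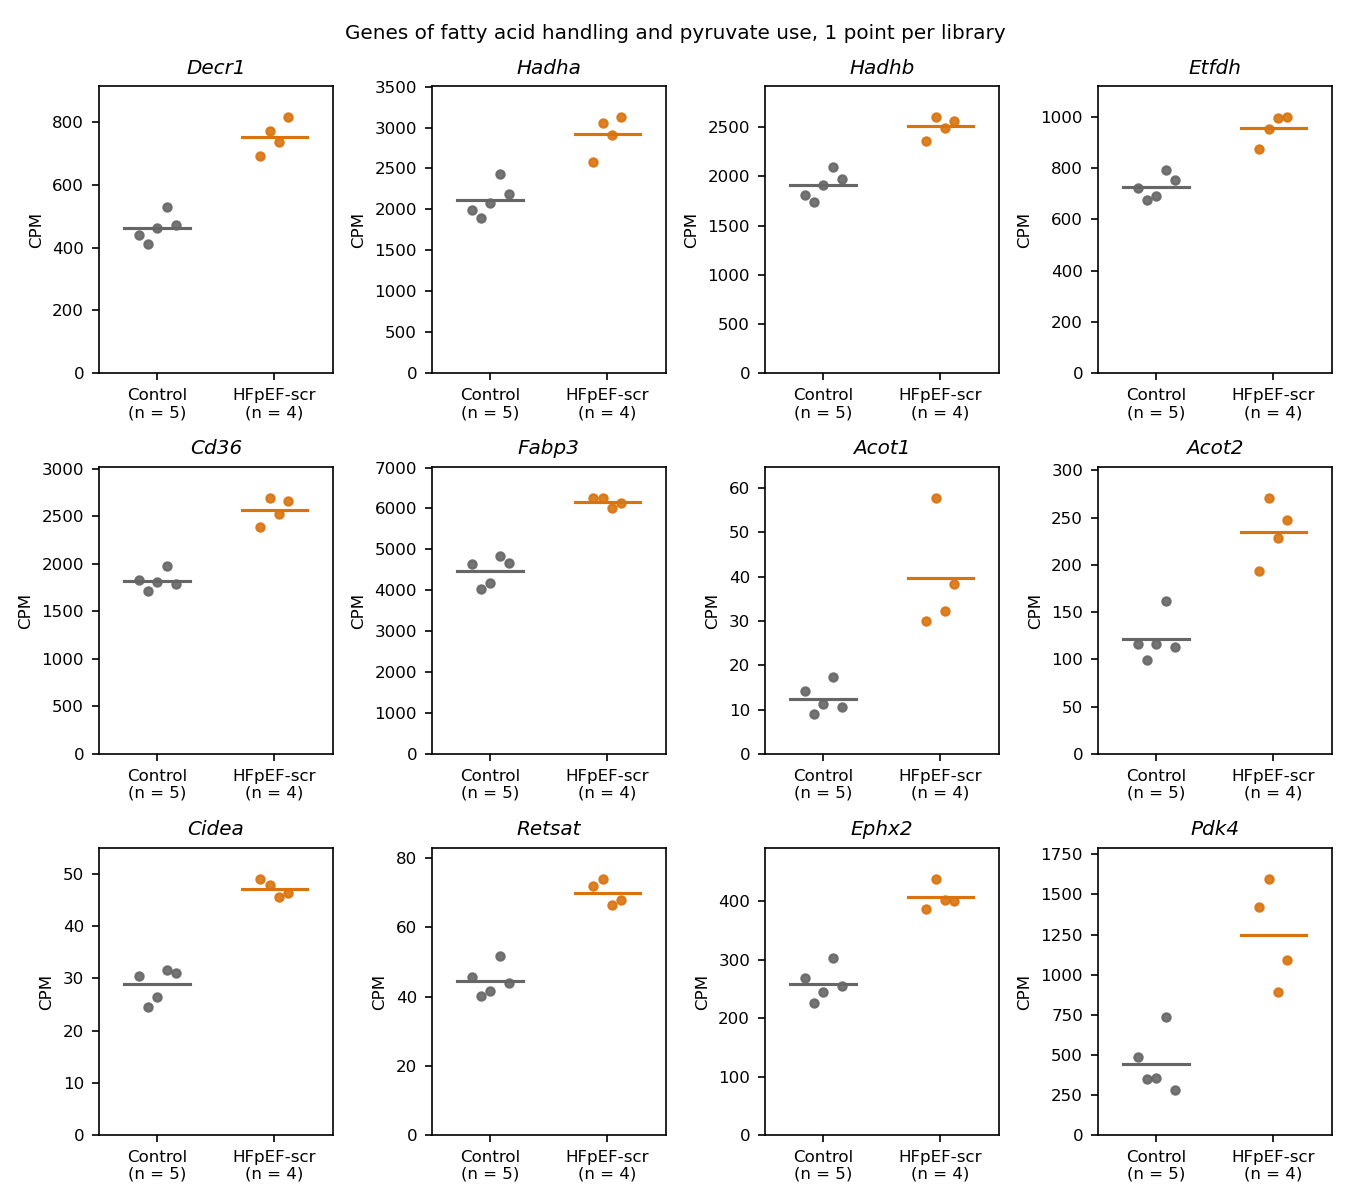
CPM of 12 genes of fatty acid handling and pyruvate use in each library. Points are libraries (grey for the 5 controls, orange for the 4 HFpEF-scr), bars the group means, and each axis starts at 0. The 12 genes were picked from those in which every HFpEF-scr library lies above every control, which held for 324 of the 498 called rises.

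Pyruvate and glucose genes moved in another way. Pdk4, the kinase that shuts pyruvate dehydrogenase (GRCm38 chromosome 6 at 5483351 to 5496309, minus strand), stood at 485, 349.6, 355, 734 and 282 CPM in the controls and at 1421, 1598, 889.8 and 1092 CPM in HFpEF-scr. The lowest HFpEF-scr library was above the highest control, Control 4, and the rise was 1.50 ± 0.24 log2 (adjusted p = 0.00192). Its sister Pdk1 rose by 0.30 ± 0.04 log2 (adjusted p = 0.000946), whereas Pdk2 fell, with a log2 change of -0.23 ± 0.04 (adjusted p = 0.00182). Pcx, which makes oxaloacetate from pyruvate, fell from 50.5, 53.9, 55.01, 52.8 and 54.7 CPM in the controls to 38.6, 37.3, 38.6 and 37.6 CPM in HFpEF-scr. Its groups were narrow and far apart, and the log2 change was -0.49 ± 0.04 (adjusted p = 2.41e-05). Mpc1, a subunit of the carrier that brings pyruvate into mitochondria, fell too, with a log2 change of -0.20 ± 0.03 (adjusted p = 0.00293).

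Of 26 genes of glucose uptake and glycolysis 7 fell and 1 rose, and their median was -0.13 log2. Eno3, the enolase of muscle, was at 1106, 1119, 1107, 1082 and 1083 CPM in the controls and at 833, 735, 868 and 837 CPM in HFpEF-scr, a log2 change of -0.43 ± 0.05 (adjusted p = 7.90e-05). Ldhb, the lactate dehydrogenase of heart, changed by -0.30 ± 0.03 log2 (adjusted p = 7.96e-05), and Gapdh by -0.27 ± 0.06 log2 (adjusted p = 0.0125). Glucose transporters fell as well. The log2 change was -0.36 ± 0.07 (adjusted p = 0.00592) in Slc2a4, which insulin moves to the surface, and -0.67 ± 0.13 (adjusted p = 0.00663) in Slc2a1, the basal one. The HFpEF-scr libraries of Slc2a1 had 17.4, 10.3, 13.96 and 14.1 CPM and the controls 22.2, 21.7, 25.3, 16.9 and 24.5 CPM, so that HFpEF-scr 1 lay just above Control 4. The 1 rise, named after its values were seen, was that of Pfkl, the liver form of phosphofructokinase, at 0.31 ± 0.09 log2. It was 0.16 log2 without HFpEF-scr 1. Among 24 genes of glycogen 3 fell (12.5%, beside 3.70% of all genes) and 0 rose. Gapdh's call was lost in 1 of 11 other settings (adjusted p up to 0.0825, with the immediate early covariate), and that of Pfkl in 7 of 9 refits without 1 library (adjusted p up to 0.103, without Control 3) and 7 of 11 other settings (adjusted p up to 0.179, with the immediate early covariate). In the glycolysis list the falls without 1 library numbered between 5 without Control 2, Control 5, HFpEF-scr 2 or HFpEF-scr 4 and 11 without HFpEF-scr 1, and 4 genes fell with the immediate early covariate. In the glycogen list they numbered between 1 without Control 3, Control 4, Control 5 or HFpEF-scr 4 and 4 without HFpEF-scr 1, and 0 with that covariate.

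Of 17 genes that make and desaturate fatty acids, 3 fell and 1 rose. Falls in the refits numbered between 1 without HFpEF-scr 2 or HFpEF-scr 4 and 4 without HFpEF-scr 1. Fasn, the fatty acid synthase, was at 40.2, 44.4, 46.98, 43.05 and 40.4 CPM in the controls and 32.3, 26.9, 30.1 and 27.00 CPM in HFpEF-scr, and the log2 change was -0.56 ± 0.06 (adjusted p = 8.71e-05). Acaca, which makes its substrate malonyl-CoA, changed by -0.38 ± 0.10 log2 (adjusted p = 0.0350), and Mlxipl, the factor that answers to glucose, by -0.35 ± 0.08 log2 (adjusted p = 0.0203). Me1, which yields NADPH, rose by 0.43 ± 0.08 log2 (adjusted p = 0.00421). The call of Acaca was lost in 6 of 9 refits without 1 library (adjusted p up to 0.103, without HFpEF-scr 2) and 3 of 11 other settings (adjusted p up to 0.159, with the immediate early covariate), and that of Mlxipl in 2 of 9 refits without 1 library (adjusted p up to 0.0621, without HFpEF-scr 2) and 3 of 11 other settings (adjusted p up to 0.132, without HFpEF-scr 1 and 2). Among the enzymes that use ketone bodies, Oxct1, which activates acetoacetate, fell from 1641, 1623, 1572, 1521 and 1604 CPM to 1292, 1164, 1309 and 1239.8 CPM, a log2 change of -0.35 ± 0.04 (adjusted p = 0.000149), and no HFpEF-scr library was within the range of the controls. Bdh1, which oxidises beta-hydroxybutyrate, was at 148, 155, 132, 75.5 and 142 CPM in the controls and 105, 29.5, 67.9 and 37.1 CPM in HFpEF-scr, a log2 change of -1.13 ± 0.29 (adjusted p = 0.0281) with overlapping groups, and its call was lost in 5 of 9 refits without 1 library (adjusted p up to 0.0822, without HFpEF-scr 4) and 2 of 11 other settings (adjusted p up to 0.107, with the immediate early covariate). Acat1, which splits acetoacetyl-CoA, rose by 0.32 ± 0.05 (adjusted p = 0.000623) log2.

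Enzymes of amino acid breakdown that changed all fell in the lists examined. In the list of branched-chain amino acids 4 of 21 fell and 0 rose, with a median of -0.10 log2. Bckdhb, part of the branched-chain ketoacid dehydrogenase, whose step is irreversible, was at 66.3, 59.4, 61.3, 59.96 and 59.9 CPM in the controls and 45.4, 43.4, 45.2 and 49.03 CPM in HFpEF-scr, a log2 change of -0.42 ± 0.05 (adjusted p = 7.14e-05). Its partner Dbt changed by -0.22 ± 0.04 (adjusted p = 0.00484) log2 and the aminotransferase Bcat2 by -0.26 ± 0.06 (adjusted p = 0.0116) log2. Of 13 aminotransferases and GABA or glutamate enzymes, 6 fell and 0 rose. Abat, the GABA transaminase (GRCm38 chromosome 16 at 8513429 to 8621568, plus strand), had 44.7, 40.4, 41.2, 34.02 and 37.8 CPM in the controls and 11.6, 12.1, 21.6 and 8.57 CPM in HFpEF-scr. Its lowest control was well above HFpEF-scr 3, the highest of the 4, and the log2 change was -1.55 ± 0.18 (adjusted p = 0.000126). Aldh5a1, which acts after it, changed by -0.24 ± 0.05 (adjusted p = 0.00737) log2, the alanine aminotransferase Gpt by -0.51 ± 0.09 (adjusted p = 0.00254) log2, Ccbl2, a kynurenine aminotransferase, by -0.49 ± 0.06 (adjusted p = 0.000128) log2 and Gcat, of glycine and threonine use, by -0.77 ± 0.09 (adjusted p = 0.000107) log2. The call of Dbt was lost in 1 of 11 other settings (adjusted p up to 0.0534, without HFpEF-scr 1 and 2). That of Bcat2 was lost in 2 of 11 other settings (adjusted p up to 0.107, without HFpEF-scr 1 and 2), and that of Aldh5a1 in 1 of 11 other settings (adjusted p up to 0.0528, with the immediate early covariate).

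Of 14 creatine and phosphotransfer enzymes, which carry energy to the myofibrils, 2 fell and 1 rose (median -0.15 log2). The rise was that of Ak4, a mitochondrial adenylate kinase named after its values were seen, at 0.26 ± 0.06 log2. Its call was lost in 2 of 9 refits without 1 library (adjusted p up to 0.0591, without Control 3) and 4 of 11 other settings (adjusted p up to 0.181, without HFpEF-scr 1 and 2). When HFpEF-scr 1 alone was left out, 5 genes of the list fell. Each other refit without 1 library gave 2 falls, as did the refit without both HFpEF-scr 1 and 2. Ckm, the muscle creatine kinase, had 2239.7, 2169, 2187, 2099 and 2259 CPM in the controls and 1735, 1630.5, 1760 and 1761 CPM in HFpEF-scr, without overlap, and a log2 change of -0.35 ± 0.04 (adjusted p = 5.50e-05). Ckmt2, its mitochondrial form, changed by -0.26 ± 0.04 (adjusted p = 0.00293) log2 and the carrier of ATP and ADP, Slc25a4, by -0.22 ± 0.04 (adjusted p = 0.00357) log2. Of 77 mitochondrial ribosomal protein genes 11 fell and 0 rose (median -0.10 log2), while of 80 cytosolic ones 6 rose and 0 fell (median 0.04 log2). Without 1 library the falls of the mitochondrial ones numbered between 5 without Control 3 or HFpEF-scr 2 and 13 without HFpEF-scr 1, and 0 fell with the immediate early covariate. The rises of the cytosolic ones numbered between 1 without HFpEF-scr 4 and 9 without HFpEF-scr 3, and 0 with that covariate. Among subunits of the respiratory chain, 2 of 9 fell in complex III (22.2%) and 1 of 17 in the ATP synthase (5.88%), beside 3.70% of all genes. In complex II 1 of 4 rose (25%, beside 3.66%). In complex I, 2 of 37 fell (5.41%, beside 3.70% of all genes), Ndufa11 with -0.29 ± 0.05 log2 and Ndufs7 with -0.25 ± 0.05 log2. In complex IV 2 of 16 fell (12.5%), among them Cox7a1, the heart and muscle form. Cox7a1 went from 561, 547, 510.4, 509 and 549 CPM to 453, 408, 424 and 419.6 CPM, a log2 change of -0.33 ± 0.04 (adjusted p = 0.000367).

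Some genes of the contractile apparatus fell, by small steps. Of 16 genes of the thick filament, 5 fell and 0 rose (median -0.07 log2), and of 26 of the thin filament and Z-disc 4 fell and 0 rose (median -0.07 log2). Mylk4, a myosin light chain kinase of heart, was at 435, 461, 531, 491 and 547 CPM in the controls and at 309.99, 241, 295 and 341 CPM in HFpEF-scr, a log2 change of -0.73 ± 0.09 (adjusted p = 0.000151). Mybpc3, the myosin binding protein that brakes the cross-bridge, was at 6152, 6653, 6842, 6081 and 6698 CPM and 4792, 5194, 5448 and 4639 CPM, a log2 change of -0.37 ± 0.05 (adjusted p = 0.000710). The ventricular light chain Myl3 changed by -0.33 ± 0.04 (adjusted p = 0.000186) log2 and the calcium sensor Tnnc1 by -0.31 ± 0.04 (adjusted p = 0.000700) log2. In each of these 4 the groups did not overlap, and the calls held in every refit without 1 library. Myh6, the adult myosin heavy chain, and Myl2, the ventricular regulatory chain, had smaller falls, with -0.17 ± 0.05 and -0.18 ± 0.05 log2. The call of Myh6 was lost in 6 of 9 refits without 1 library (adjusted p up to 0.100, without HFpEF-scr 2) and 5 of 11 other settings (adjusted p up to 0.200, without HFpEF-scr 1 and 2), and that of Myl2 in 6 of 9 refits without 1 library (adjusted p up to 0.0859, without Control 5) and 5 of 11 other settings (adjusted p up to 0.155, without HFpEF-scr 1 and 2). In the thick filament list the falls without 1 library numbered between 3 without Control 3, Control 4, Control 5, HFpEF-scr 1 or HFpEF-scr 3 and 7 without Control 1, and in that of the thin filament and Z-disc between 2 without Control 2, Control 3, Control 4 or Control 5 and 4 without Control 1 or HFpEF-scr 4. These genes moved with the sum of cardiomyocyte markers, which holds some of them, and the part of cell numbers was not tested. Myh7, the myosin of the fetal ventricle, is named after its values were seen. It had 357, 449, 1216, 757 and 767 CPM in the controls and 2987, 1691, 919 and 541 CPM in HFpEF-scr, with HFpEF-scr 1 and 2 above every control and the other 2 among them, and an uncalled log2 change of 1.11 ± 0.39 (adjusted p = 0.0899). Without HFpEF-scr 4 it passed, at 1.40 log2 (adjusted p = 0.0321), and without HFpEF-scr 1 it was at 0.56 log2 (adjusted p = 0.333). The peptides of wall stress, Nppa and Nppb, the latter likewise named afterwards, were not called, at -0.73 ± 0.28 (adjusted p = 0.121) and -0.45 ± 0.29 (adjusted p = 0.374) log2.

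**Figure D4:**
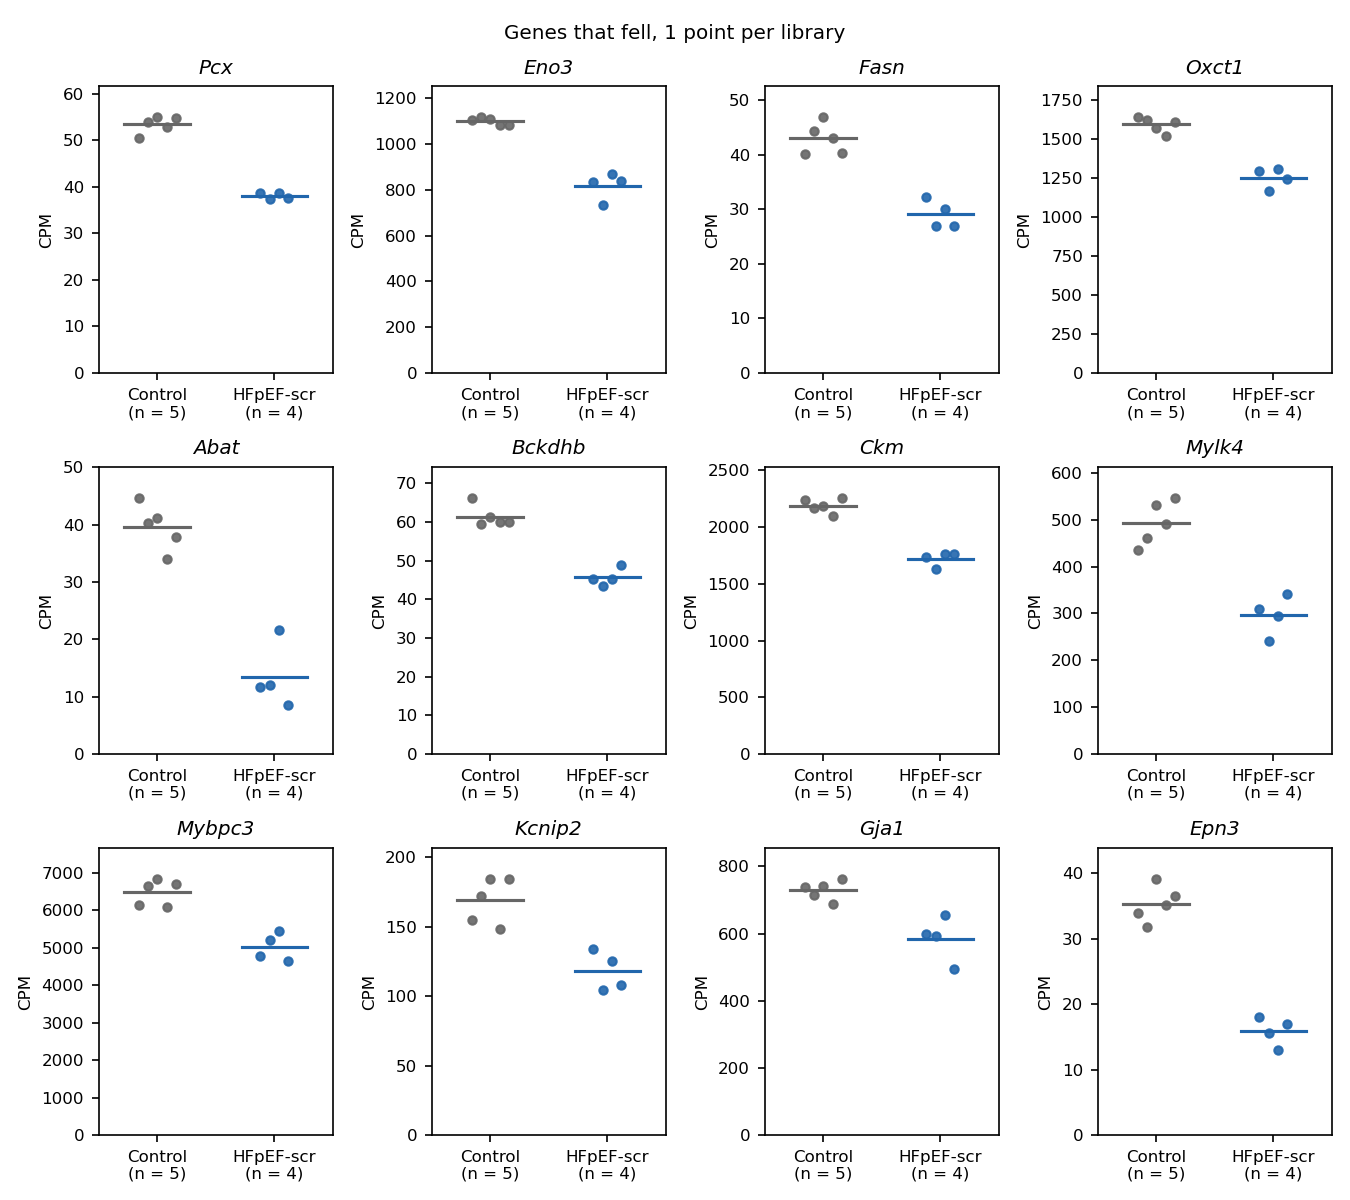
CPM of 12 called falls in each library, from pyruvate, amino acid, energy transfer, sarcomere and excitation genes. Points are libraries (grey for the 5 controls, blue for the 4 HFpEF-scr), bars the group means, and each axis starts at 0. The 12 genes were picked from those in which every HFpEF-scr library lies below every control, which held for 374 of the 503 called falls.

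Genes of the action potential and of conduction changed in both directions. Scn4b, a beta subunit of the sodium channel (GRCm38 chromosome 9 at 45138395 to 45154152, plus strand), was at 64.9, 55.9, 71.9, 69.8 and 71.3 CPM in the controls and 121, 134, 133 and 103 CPM in HFpEF-scr, and rose by 0.88 ± 0.09 log2 (adjusted p = 3.29e-05). Kcnip2, the partner of the transient outward channel, was at 155, 172, 184, 148 and 185 CPM in the controls and 134, 105, 125 and 108 CPM in HFpEF-scr, a log2 change of -0.52 ± 0.08 (adjusted p = 0.00110). Gja1, the connexin of the ventricle, was at 739.6, 714, 742, 688 and 763 CPM and 599, 593, 655 and 494 CPM, with a log2 change of -0.32 ± 0.07 (adjusted p = 0.00972). The groups of Scn4b, Kcnip2 and Gja1 did not overlap. In all, 3 of 35 potassium channel genes rose (8.57%) and 2 fell (5.71%), beside 3.66% and 3.70% of all genes. Of 30 genes for sodium channels, connexins and pacemaker channels 1 rose (3.33%) and 4 fell (13.3%). Without 1 library the potassium channels gave rises numbering between 1 without Control 3, HFpEF-scr 3 or HFpEF-scr 4 and 3 without Control 5 or HFpEF-scr 1 and falls numbering between 1 without Control 2, Control 3, Control 4, Control 5 or HFpEF-scr 3 and 6 without Control 1. The other channels gave falls numbering between 2 without HFpEF-scr 2 and 4 without Control 1, Control 3, Control 4, Control 5 or HFpEF-scr 1. Kcnv2, a silent subunit, rose by 0.72 ± 0.12 (adjusted p = 0.00268) log2. The 10 markers of conduction tissue summed to between 131 and 189.5 CPM in the controls and between 110.3 and 151 CPM in HFpEF-scr, with Isl1 at 0 in all 9 libraries, and the part of that tissue in these changes was not tested. Ndrg4, which heart muscle needs for its growth and conduction, changed by -0.66 ± 0.07 (adjusted p = 5.50e-05) log2.

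In calcium handling 1 of 36 genes rose and 1 fell (2.78% each), near the 3.66% and 3.70% of all genes. The fall was that of Letm1, an exchanger of the inner mitochondrial membrane, with -0.21 ± 0.06 log2, and its call was lost in 5 of 9 refits without 1 library (adjusted p up to 0.0947, without HFpEF-scr 2) and 3 of 11 other settings (adjusted p up to 0.155, without HFpEF-scr 1 and 2). Pln, the brake on the calcium pump, was among the 5 genes nearest to 0, at 5234, 5481, 5725, 5601 and 5649 CPM in the controls and 5398, 5546, 5461 and 5703 CPM in HFpEF-scr, and the 95% interval of its change ran from -0.08 to 0.07 log2. Of its exon bases 64.7% are shared with another gene.

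Receptors and messengers upstream of these channels held some of the largest changes. Chrna2, a nicotinic receptor subunit (GRCm38 chromosome 14 at 66135039 to 66152948, plus strand), had 2.58, 1.11, 2.15, 4.58 and 1.77 CPM in the controls and 9.36, 11.1, 10.9 and 9.85 CPM in HFpEF-scr. Its HFpEF-scr values were close together and well above the highest control, and the rise was 2.06 ± 0.23 log2 (adjusted p = 8.24e-05). Grk5, the kinase that silences beta-adrenergic receptors, was at 36.1, 37.4, 36.6, 32.4 and 30.9 CPM and 52.1, 62.1, 51.02 and 49.95 CPM and rose by 0.63 ± 0.08 log2 (adjusted p = 0.000134). Adrb1, the main beta receptor of heart, changed by -0.44 ± 0.11 log2 (adjusted p = 0.0211), the scaffold Akap5 by -1.09 ± 0.19 log2 (adjusted p = 0.00320) and the G-protein subunit Gnb3 by -1.22 ± 0.23 log2 (adjusted p = 0.00511). These fell without overlap of the groups. Adrb1 lost its call in 2 of 9 refits without 1 library (adjusted p up to 0.0563, without HFpEF-scr 4) and 2 of 11 other settings (adjusted p up to 0.0969, with the immediate early covariate). Over the whole list of adrenergic and muscarinic signalling 3 of 30 rose and 3 fell. In the refits falls numbered between 2 without HFpEF-scr 2 or HFpEF-scr 4 and 5 without HFpEF-scr 1.

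Enzymes of cyclic nucleotides and nitric oxide, the messenger that L-NAME blocks, gave 5 rises and 2 falls among 34 genes. Their rises numbered between 2 without Control 3, HFpEF-scr 2 or HFpEF-scr 4 and 6 without HFpEF-scr 1, and 1 with the immediate early score as a covariate. Pde11a, a phosphodiesterase of cyclic AMP and cyclic GMP (GRCm38 chromosome 2 at 75989141 to 76338774, minus strand), was at 1.41, 0.890, 1.24, 1.55 and 2.11 CPM in the controls and 3.10, 7.90, 5.83 and 4.75 CPM in HFpEF-scr, low levels that did not overlap, and rose by 1.90 ± 0.27 log2 (adjusted p = 0.000595). Pde1c, which calcium switches on, fell from 89.3, 113, 105, 93.6 and 98.8 CPM to 62.8, 56.3, 74.4 and 61.5 CPM, a log2 change of -0.65 ± 0.09 (adjusted p = 0.000384). Nos2, the inducible synthase, was at 17.7, 18.3, 22.8, 20.3 and 19.02 CPM and 10.8, 14.8, 14.1 and 11.1 CPM, a log2 change of -0.63 ± 0.12 (adjusted p = 0.00568), again without overlap. Pde7b rose by 0.53 ± 0.12 (adjusted p = 0.0151) log2, and its call was lost in 2 of 11 other settings (adjusted p up to 0.0897, without HFpEF-scr 1 and 2). Gucy1a3, of the nitric oxide receptor, rose by 0.35 ± 0.09 (adjusted p = 0.0234) log2, and its call was lost in 3 of 9 refits without 1 library (adjusted p up to 0.0791, without HFpEF-scr 2) and 2 of 11 other settings (adjusted p up to 0.0877, with the immediate early covariate).

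Vessel signals changed in both directions. Of 17 genes of angiotensin, endothelin and apelin, 2 rose (11.8%) and 5 fell (29.4%), beside 3.66% and 3.70% of all genes. Without 1 library the falls numbered between 0 without HFpEF-scr 4 and 4 without Control 1. Aplnr, the apelin receptor, was at 61.1, 78.1, 61.6, 43.7 and 43.9 CPM in the controls and 35.5, 27.98, 47.95 and 20.3 CPM in HFpEF-scr, with HFpEF-scr 3 inside the range of the controls, and changed by -0.80 ± 0.22 log2 (adjusted p = 0.0339). Among 33 genes of VEGF, angiopoietin and Notch, 5 fell (15.2%) and 2 rose (6.06%). In the latter list the falls numbered between 3 without Control 1, Control 2, Control 3, HFpEF-scr 2 or HFpEF-scr 4 and 6 without HFpEF-scr 1 and the rises between 0 without Control 2, Control 3 or HFpEF-scr 1 and 3 without Control 1 or HFpEF-scr 2. Angpt1, which steadies vessels, was at 90.2, 102, 95.2, 93.5 and 75.3 CPM and 50.1, 73.5, 45.6 and 72.6 CPM, a log2 change of -0.59 ± 0.14 (adjusted p = 0.0177), and Nrarp, a feedback inhibitor of Notch, changed by -0.62 ± 0.13 (adjusted p = 0.00926) log2. The call of Aplnr was lost in 4 of 9 refits without 1 library (adjusted p up to 0.0922, without HFpEF-scr 2) and 3 of 11 other settings (adjusted p up to 0.199, with the immediate early covariate). Endothelial markers, 15 in number, summed to between 2389 and 2652 CPM in the controls and between 2456 and 2935 CPM in HFpEF-scr. Of Nrarp's exon bases 79.4% overlap another gene.

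In growth factor pathways, Bmp7 fell from 3.37, 2.97, 4.37, 3.37 and 3.61 CPM to 1.41, 1.94, 2.05 and 1.84 CPM, a log2 change of -0.96 ± 0.16 (adjusted p = 0.00219) without overlap. Smad6, an inhibitor of BMP signals, was at 17.4, 11.9, 14.2, 14.5 and 13.9 CPM in the controls and 45.6, 16.8, 17.3 and 20.9 CPM in HFpEF-scr, where HFpEF-scr 1 stood far above every other library. It rose by 0.80 ± 0.23 log2 (adjusted p = 0.0451), a call lost in 6 of 9 refits without 1 library (adjusted p up to 0.0964, without Control 2) and 6 of 11 other settings (adjusted p up to 0.208, with the immediate early covariate). The change was 0.34 log2 without HFpEF-scr 1. Within insulin and Akt signalling 2 of 45 genes rose and 2 fell (4.44% each), near the 3.66% and 3.70% of all genes. The refits of this list gave rises numbering between 0 without HFpEF-scr 4 and 3 without Control 4 or HFpEF-scr 3 and falls between 1 without Control 2, HFpEF-scr 3 or HFpEF-scr 4 and 3 without HFpEF-scr 1. Akt1 was at 289.7, 328, 291, 232 and 305 CPM and 257, 185, 175 and 215 CPM, a log2 change of -0.48 ± 0.10 (adjusted p = 0.0115), with HFpEF-scr 1 above Control 4. Foxo1, the factor named in the series title, was at 44.2, 42.2, 42.4, 46.96 and 44.4 CPM in the controls and 44.8, 48.3, 41.04 and 40.1 CPM in HFpEF-scr, an uncalled log2 change of -0.02 ± 0.06 (adjusted p = 0.904).

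Stress genes rose unevenly over the libraries. Among 30 immediate early genes 6 rose and 0 fell, with a median of 0.72 log2. Fosb, a subunit of the AP-1 factor, was at 13.03, 0.594, 1.57, 3.23 and 10.2 CPM in the controls and 235, 468, 2.18 and 45.7 CPM in HFpEF-scr, so HFpEF-scr 3 was inside the range of the controls while HFpEF-scr 1 and 2 were far above it. The rise was 4.95 ± 0.96 log2 (adjusted p = 0.00670). Myc, a transcription factor of growth, was at 2.72, 2.75, 4.37, 2.76 and 4.29 CPM and 8.37, 10.04, 4.35 and 5.46 CPM and rose by 1.06 ± 0.24 log2 (adjusted p = 0.0160), with HFpEF-scr 3 within the controls. The score of these same genes differed between libraries as given above, and with that score as a covariate Fosb had a log2 change of 1.53 (adjusted p = 0.397). The call of Fosb was lost in 4 of 10 other settings (adjusted p up to 0.397, with the immediate early covariate), and that of Myc in 1 of 9 refits without 1 library (adjusted p up to 0.0573, without HFpEF-scr 2) and 2 of 11 other settings (adjusted p up to 0.240, without HFpEF-scr 1 and 2). In refits without 1 library the rises of the list numbered between 2 without HFpEF-scr 2 and 12 without Control 5.

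Cytokine answers gave 5 rises (17.2%, beside 3.66% of all genes) and 0 falls of 29 genes, and 2 rises with the immediate early score as a covariate. Without 1 library there were between 3 without Control 1, Control 2, Control 3, HFpEF-scr 2 or HFpEF-scr 4 and 7 without HFpEF-scr 3. Osmr, the receptor of oncostatin M, was at 23.01, 19.96, 21.7, 20.3 and 21.6 CPM in the controls and at 32.5, 29.2, 31.4 and 34.2 CPM in HFpEF-scr. It rose by 0.58 ± 0.07 log2 (adjusted p = 0.000134) without overlap, and its adjusted p was 0.00154 with that covariate. Socs3, the inhibitor that cytokines induce, was at 7.45, 5.86, 5.42, 6.80 and 3.34 CPM and 28.9, 66.4, 4.80 and 16.2 CPM, and HFpEF-scr 3 was within the controls. Its rise was 2.31 ± 0.48 log2 (adjusted p = 0.00940), 1.50 log2 without HFpEF-scr 2 (adjusted p = 0.0311), and its call was lost in 4 of 11 other settings (adjusted p up to 0.216, with the immediate early covariate). The immediate early gene Ier3 rose by 0.56 ± 0.10 (adjusted p = 0.00493) log2.

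Genes answering to glucocorticoids gave 4 rises and 0 falls of 22, Pdk4 among them. The rises numbered between 1 without Control 2, Control 3 or HFpEF-scr 2 and 6 without HFpEF-scr 3, and 1 with the immediate early covariate, where the median of the list went from 0.59 to 0.19 log2. Ddit4, an inhibitor of mTORC1 that low oxygen also raises, was at 28.9, 19.6, 13.6, 19.00 and 28.5 CPM in the controls and 35.3, 82.9, 30.5 and 58.6 CPM in HFpEF-scr and rose by 1.23 ± 0.30 log2 (adjusted p = 0.0234). Of 24 genes of low oxygen 6 rose and 1 fell, and without 1 library the rises numbered between 1 without HFpEF-scr 4 and 10 without Control 1, and 1 with the immediate early covariate. Mxi1, an opponent of Myc, rose by 0.33 ± 0.05 (adjusted p = 0.000551) log2 and held its call throughout. Among 32 chaperone genes 4 rose (12.5%, beside 3.66% of all genes). Their count in the refits lay between 2 without Control 2, Control 3, Control 4, HFpEF-scr 2, HFpEF-scr 3 or HFpEF-scr 4 and 10 without Control 1, and it was 1 with that covariate. Hspd1, the mitochondrial chaperonin, rose by 0.22 ± 0.04 (adjusted p = 0.00442) log2, from 513 ± 16.1 CPM (SD, n = 5) to 599.8 ± 32.7 CPM (SD, n = 4), and the inducible Hspa1a by 1.50 ± 0.30 (adjusted p = 0.00853) log2, at 13.02, 17.3, 9.03 and 18.1 CPM in HFpEF-scr and 9.51, 3.04, 3.52, 4.99 and 3.54 CPM in the controls. The call of Ddit4 was lost in 4 of 9 refits without 1 library (adjusted p up to 0.0857, without HFpEF-scr 2) and 2 of 11 other settings (adjusted p up to 0.145, with the immediate early covariate), and that of Hspa1a in 1 of 11 other settings (adjusted p up to 0.0819, with the immediate early covariate). The core clock gave 0 calls among 17 genes, with Rora nearest at 0.27 ± 0.10 log2 (adjusted p = 0.113). Of the 17, 2 had an unadjusted p under 0.05, DESeq2 called 0 and limma voom 0.

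Interferon and antigen presentation genes that changed all fell. Of 49 interferon-induced genes 8 fell and 0 rose (median -0.24 log2), and of 22 genes of MHC class I presentation 6 fell and 0 rose (median -0.32 log2). Interferons act through STAT and IRF factors, which bind an element made of TTTC, any 2 bases and TTTC. It was searched on both strands in 32851 RefSeq promoters (GRCm38.p6, 300 bases each), and 3.67% of the tested genes with a promoter there held it, against 20 of 35 genes of the interferon list. The 150 bases before the start site of 4 genes that fell are shown because they hold it, and capitals mark it. It lies on the strand opposite to the gene, so that the capitals read GAAA, 2 bases and GAAA. In Bst2, 2 overlapping matches make 1 run of capitals.
Tgtp2 (chr11:49064213-49064362, minus strand): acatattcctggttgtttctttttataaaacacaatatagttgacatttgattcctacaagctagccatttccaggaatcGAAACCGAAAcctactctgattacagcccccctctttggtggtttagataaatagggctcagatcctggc
Bst2 (chr8:71537473-71537622, minus strand): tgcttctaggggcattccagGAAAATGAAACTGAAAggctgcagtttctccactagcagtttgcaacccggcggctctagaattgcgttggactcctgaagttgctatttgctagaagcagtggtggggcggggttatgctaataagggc
Irgm2 (chr11:58214827-58214976, plus strand): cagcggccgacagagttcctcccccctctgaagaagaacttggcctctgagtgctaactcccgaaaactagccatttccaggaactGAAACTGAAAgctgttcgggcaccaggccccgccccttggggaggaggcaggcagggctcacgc
B2m (chr2:122147537-122147686, plus strand): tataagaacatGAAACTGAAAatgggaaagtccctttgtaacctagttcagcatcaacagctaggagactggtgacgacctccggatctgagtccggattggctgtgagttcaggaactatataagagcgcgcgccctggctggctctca
Tgtp2, a GTPase that guards against parasites, was at 14.5, 19.2, 13.6, 18.5 and 20.5 CPM in the controls and 8.87, 12.2, 11.9 and 9.28 CPM in HFpEF-scr, a log2 change of -0.70 ± 0.15 (adjusted p = 0.0112) without overlap. Bst2, which tethers virus particles, was at 17.3, 16.99, 14.5, 12.5 and 15.3 CPM and 11.3, 10.04, 11.7 and 12.8 CPM, with HFpEF-scr 4 just above Control 4, a log2 change of -0.42 ± 0.12 (adjusted p = 0.0427). Irgm2, a regulator of such GTPases, was at 23.9, 27.8, 25.1, 28.3 and 32.2 CPM and 21.5, 22.8, 21.4 and 24.4 CPM and changed by -0.28 ± 0.08 log2 (adjusted p = 0.0451). Irgm2's HFpEF-scr 4 lay within the range of the controls. B2m, the light chain of class I molecules, was at 156, 191, 178, 175 and 200.01 CPM in the controls and 143, 147, 156 and 133 CPM in HFpEF-scr, and changed by -0.31 ± 0.08 log2 (adjusted p = 0.0306). In B2m the lowest control, Control 1, and HFpEF-scr 3 all but met. The call of Tgtp2 was lost in 1 of 11 other settings (adjusted p up to 0.0504, without HFpEF-scr 1 and 2). That of Bst2 was lost in 8 of 9 refits without 1 library (adjusted p up to 0.118, without HFpEF-scr 2) and 6 of 11 other settings (adjusted p up to 0.238, without HFpEF-scr 1 and 2). That of Irgm2 was lost in 8 of 9 refits without 1 library (adjusted p up to 0.0983, without Control 5) and 8 of 11 other settings (adjusted p up to 0.185, without HFpEF-scr 1 and 2), and that of B2m in 6 of 9 refits without 1 library (adjusted p up to 0.0902, without HFpEF-scr 4) and 4 of 11 other settings (adjusted p up to 0.128, with the immediate early covariate). A match is a description of these letters. Of the 6 interferon genes that fell and have a promoter in the table, 5 held it. Of the class I genes with a promoter, 1 of the 6 that fell held it, beside 5 of the 18 tested. Among all falls it was 13 of 360 (3.61%), near the 3.67% of all tested genes.

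Iigp1, another GTPase of the family, held its call in all settings, at 63.9, 123, 92.5, 85.96 and 100.4 CPM in the controls and 43.6, 62.2, 49.6 and 53.3 CPM in HFpEF-scr, a log2 change of -0.83 ± 0.14 (adjusted p = 0.00268). Every HFpEF-scr library was under Control 1, the lowest control. The class I heavy chain H2-K1 changed by -0.46 ± 0.10 (adjusted p = 0.0140) log2 and its call was lost in 1 of 11 other settings (adjusted p up to 0.0632, without HFpEF-scr 1 and 2). H2 genes are close copies, and so are the GTPases, so that the division of reads among them is uncertain. With the immediate early score as a covariate 2 interferon genes and 2 class I genes fell. Without 1 library the interferon falls numbered between 2 without Control 2, Control 3, Control 5 or HFpEF-scr 2 and 13 without Control 1, and the class I falls between 1 without Control 2 or Control 5 and 9 without Control 1. Class II genes, 9 in number, had 0 calls and a median of -0.20 log2, with H2-Eb1 nearest at -0.35 ± 0.11 log2 (adjusted p = 0.0657). Of the 9, 3 had an unadjusted p under 0.05, DESeq2 called 2 and limma voom 0. Of the macrophage markers Cx3cr1 came nearest at -0.81 ± 0.28 log2 (adjusted p = 0.0900). Macrophage marker sums, given above, overlapped between the groups, and their part in these falls was not tested.

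Genes of dividing cells were low and mostly lower in HFpEF-scr. Of 42 in the list 5 fell and 0 rose, with a median of -0.44 log2, and 40 of the 42 had a log2 change under 0. Ccnd2, a cyclin that heart muscle keeps, was at 186, 223, 249, 188 and 221 CPM in the controls and 148, 144, 172 and 145 CPM in HFpEF-scr, a log2 change of -0.49 ± 0.08 (adjusted p = 0.00162). Mki67, a mark of cycling nuclei, was at 10.1, 16.03, 13.1, 6.33 and 8.45 CPM and 5.56, 2.63, 5.83 and 3.90 CPM, a log2 change of -1.26 ± 0.29 (adjusted p = 0.0172). Both Ccnd2 and Mki67 were below every control in every HFpEF-scr library. The call of Mki67 was lost in 2 of 9 refits without 1 library (adjusted p up to 0.0516, without HFpEF-scr 2) and 2 of 11 other settings (adjusted p up to 0.123, with the immediate early covariate). Falls of the list in the refits numbered between 1 without HFpEF-scr 2 and 8 without Control 4 or HFpEF-scr 1, and 1 with the immediate early covariate.

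Of 24 collagen genes edgeR called 0 (median 0.07 log2), the nearest being Col27a1 at 0.36 ± 0.12 log2 (adjusted p = 0.0722). Of the 24, 3 had an unadjusted p under 0.05, DESeq2 called 1 and limma voom 0. Of 29 small proteoglycans and matricellular proteins 4 rose and 0 fell (median 0.19 log2). In the refits of these, rises numbered between 3 without Control 3 or HFpEF-scr 4 and 6 without Control 2, HFpEF-scr 1 or HFpEF-scr 2. Lum, which spaces collagen fibrils, was at 27.9, 40.4, 35.2, 28.97 and 34.8 CPM in the controls and 41.1, 50.6, 51.2 and 45.1 CPM in HFpEF-scr and rose by 0.49 ± 0.10 log2 (adjusted p = 0.0113), and Prelp, of the same family, rose by 0.33 ± 0.06 (adjusted p = 0.00690) log2. Neither overlapped between the groups. Fbln2, of the elastic fibre, was at 99.6, 103, 88.2, 92.8 and 90.2 CPM and 139.8, 125, 136 and 122 CPM and rose by 0.46 ± 0.09 log2 (adjusted p = 0.00586), while Lamb2, of the basement membrane, changed by -0.20 ± 0.04 (adjusted p = 0.00883) log2. Itgb1, the common partner of matrix receptors, rose by 0.21 ± 0.05 (adjusted p = 0.0115) log2. Of the 15 fibroblast markers tested 2 rose and 0 fell, and their sums, given above, overlapped between the groups.

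Several of the clearest changes lay outside these lists. Epn3, an endocytosis adaptor (GRCm38 chromosome 11 at 94489599 to 94499974, minus strand), fell from 33.9, 31.8, 39.2, 35.1 and 36.5 CPM to 18.02, 15.7, 12.9 and 17.01 CPM, a log2 change of -1.15 ± 0.10 (adjusted p = 1.10e-05). Lrrc4b, a protein of synapses, was at 29.1, 36.6, 32.3, 32.9 and 39.5 CPM in the controls and 20.2, 10.6, 11.8 and 12.6 CPM in HFpEF-scr, a log2 change of -1.30 ± 0.15 (adjusted p = 8.24e-05), and Lgi3, a secreted protein of neurons, at 3.98, 4.01, 3.85, 3.84 and 3.82 CPM and 1.62, 1.04, 1.34 and 0.850 CPM, a log2 change of -1.68 ± 0.20 (adjusted p = 0.000126). All 3 were taken only from called genes whose groups did not overlap, so the lack of overlap follows from that choice. They kept their calls in every refit without 1 library and in the other settings. Krt222, a keratin-like gene, changed by -0.53 ± 0.05 (adjusted p = 3.64e-05) log2 and Slc9a3, a sodium and proton exchanger, by -1.86 ± 0.32 (adjusted p = 0.00293) log2. Among rises, Lgals4, a galectin, was at 53.7, 53.9, 61.4, 98.97 and 58.2 CPM and 112, 177, 108 and 140.01 CPM and rose by 1.04 ± 0.16 log2 (adjusted p = 0.00152). Slc15a2, a peptide transporter, was at 2.81, 1.85, 0.979, 0.202 and 0.273 CPM in the controls and 5.70, 5.19, 6.98 and 14.2 CPM in HFpEF-scr, a rise of 2.61 ± 0.59 log2 (adjusted p = 0.0157), and lost its call in 1 of 9 refits without 1 library (adjusted p up to 0.0559, without HFpEF-scr 4) and 1 of 10 other settings (adjusted p up to 0.0614, with the immediate early covariate). Erdr1, of the pseudoautosomal region, was at 15.4, 24.3, 22.8, 20.1 and 18.2 CPM and 0.352, 0.346, 7.75 and 1.06 CPM, with HFpEF-scr 3 apart from the other 3. Its log2 change of -3.03 ± 0.75 (adjusted p = 0.0249) was -5.09 without HFpEF-scr 3, and the call was lost in 3 of 9 refits without 1 library (adjusted p up to 0.0689, without HFpEF-scr 4) and 5 of 10 other settings (adjusted p up to 0.170, in limma voom with weights).

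**Figure D5:**
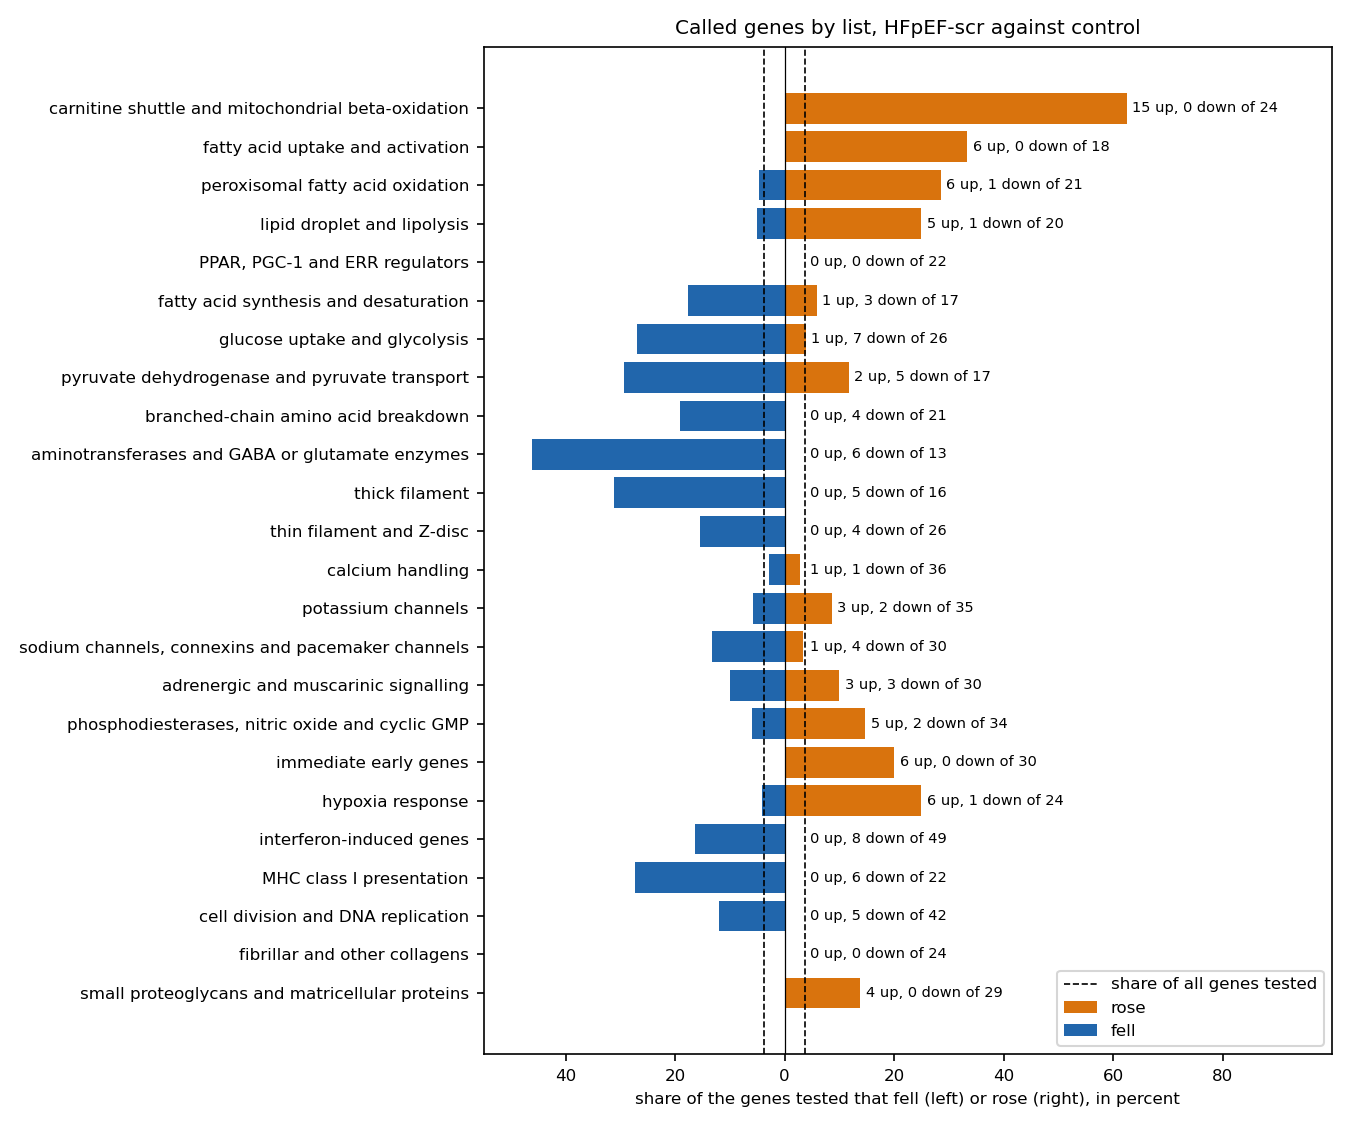
Share of the tested genes of 24 lists that rose (orange, to the right) or fell (blue, to the left), in percent, with counts of rises and falls over the genes tested beside each list. Dashed lines mark the 3.66% of all genes that rose and the 3.70% that fell. Beta-oxidation has the largest share of rises (15 of 24) and aminotransferases the largest of falls (6 of 13) among the lists drawn.

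The FoxO element GTAAACA lay in 2.73% of 513 promoters of rises and 3.12% of 448 of falls, against 2.52% of 12985 promoters of tested genes. The AP-1 site TGANTCA lay in 7.99% and 6.92%, against 5.13%, and the E-box CACGTG, which clock factors bind, in 7.02% and 12.1%, against 9.72%. A gene can have several promoters in the table, both strands were searched, and nothing about a factor follows from such shares.

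The HFpEF-FoxO1-sh libraries, from mice on the same fatty diet with L-NAME but with a hairpin against Foxo1, share these controls. Decr1 had a mean of 824 CPM there (log2 change against control 0.83, 0.70 ± 0.06 in HFpEF-scr), Cd36 2540.1 CPM (0.48 and 0.49 ± 0.05), Ckm 1873 CPM (-0.23 and -0.35 ± 0.04) and Chrna2 11.03 CPM (2.16 and 2.06 ± 0.23). Fosb had 3.98 CPM (-0.64 and 4.95 ± 0.96), Socs3 4.64 CPM (-0.33 and 2.31 ± 0.48), and Erdr1 11.2 CPM (-0.84 and -3.03 ± 0.75). Differences between both HFpEF groups were not tested here.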

How the data were processed

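Left ventricular RNA was taken up in QIAzol and purified on RNeasy columns, and poly(A) RNA was made into libraries with a Swift Biosciences kit, per the labels' protocols. The authors deposited expected counts per gene for 14 libraries, and the submitters' processing notes name Bowtie2 2.1.0, RSEM 1.2.15 and mm10 with no role for each. RSEM divides reads that fit several genes, and 15.1% to 16.4% of the values of each library were not whole. Here the expected counts were rounded and tested with edgeR 4.0.16 (R 4.3.3): filterByExpr, TMM scaling, a quasi-likelihood fit over all 14 libraries with 1 coefficient per group, and Benjamini-Hochberg adjustment over 13588 of 24054 genes. SE is the log2 change divided by the root of F. CPM are TMM-scaled, but the marker sums and the levels of Nnt and Hbb-b1 are scaled by the library total alone. Depth of the 9 libraries was about 13174000 to 21247000 counts. Counts were simulated with 199 tested genes changed 2-fold, or 196 changed 1.5-fold. Of these changes 86.9% and 69.4% were recovered, with 5.98% and 7.48% of calls false. The simulation held no smaller changes and no library that stood apart, so these shares do not carry over to called changes under 1.25-fold.

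Groups came from the titles. The members, lists, marker sets and the rule for named genes were chosen with earlier results of these data known. By that rule, of the called genes of at least 2 CPM whose groups did not overlap, the 25 rises and 25 falls with the smallest p, the 10 of each with the largest change and the 15 most abundant could be named. To these come up to 5 called members of each list, up to 3 of each name family, the member with the smallest p of a list without calls, and the 5 genes of at least 100 CPM nearest to 0. Not all are printed, and some genes the rule took are not reported here. Alternatives covered other scaling, filters, DESeq2 1.42.0, limma 3.58.1 (voom, with and without quality weights), a fold minimum of 1.2, a replicate block, 2 covariates and libraries left out. Positions are those of GENCODE vM21 (GRCm38), and promoter sequences those of RefSeq (GRCm38.p6). Names turned into dates in the table (27) were not named.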

Additional observations from a re-analysis of the deposited data

Results flagged for a closer look

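Among 282 sets of 4 or 5 values examined, in 16 the highest or lowest library stood apart from the rest of its group by Dixon's test, where chance gives about 1 in 20. In Control 1 the clock score was 1.37 against 3.26 to 4.00 in the other controls, Bckdhb stood at 66.3 CPM (others 59.4 to 61.3) and Akap5 at 15.0 CPM (others 20.4 to 21.6). In Control 4, Acot2 was at 162 CPM (others 99.4 to 117), Acsl1 at 1590 CPM (others 1350 to 1420), Lgals4 at 99.0 CPM (others 53.7 to 61.4), Pde7b at 44.8 CPM (others 28.1 to 32.8) and Bdh1 at 75.5 CPM (others 132 to 155). In these 5 genes Control 4 lay on the side of HFpEF-scr.

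In HFpEF-scr 1, Mgll stood at 342 CPM (others 191 to 204), Smad6 at 45.6 CPM (others 16.8 to 20.9) and Slc25a20 at 248 CPM (others 276 to 281). In HFpEF-scr 2, Letm1 was at 125 CPM (others 134 to 135). In HFpEF-scr 3, Erdr1 was at 7.75 CPM (others 0.346 to 1.06), Ccnd2 at 172 CPM (others 144 to 148) and Dbt at 96.0 CPM (others 88.4 to 89.5). In HFpEF-scr 4, Myh6 was at 57900 CPM (others 51900 to 52400).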

How the results depend on the processing

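The 1001 calls (498 rises, 503 falls) became 504 (248, 256) in a fit of the 9 libraries alone, 400 (191, 209) with the immediate early score as a covariate, 560 (298, 262) without HFpEF-scr 1 and 2, and 56 (26, 30) when a change beyond 1.2-fold was tested. Without 1 library they ran from 537 to 1106 (rises 261 to 553, falls 265 to 557). Same-numbered controls and HFpEF-scr libraries did not deviate together, with r of -0.03, -0.19, 0.08 and 0.02 across genes. Of the 4 HFpEF-scr libraries 0 correlated best with their own number. No pairing by number was seen, but correlations over all genes cannot exclude a weak shared factor. With the replicate block 770 genes were called (399 rises, 371 falls). Other counts ran from 841 with the clock covariate and 859 without a filter to 1300 in DESeq2. In none of these settings was a call made in the opposite direction. Of the 129 called genes named, 91 kept the call in all 20 settings other than the fold minimum. Of the uncalled, Foxo1 changed sign without Control 4 (0.00761 log2), HFpEF-scr 3 (0.00874) and HFpEF-scr 4 (0.0193), and ran down to -0.0709 without HFpEF-scr 2. Pln did so without a filter (0.00162), with the clock covariate (0.0154), without HFpEF-scr 1 and 2 (0.00994), and without Control 3, Control 4, Control 5, HFpEF-scr 1 or HFpEF-scr 3 (4.72e-06 to 0.0106), with a lowest value of -0.0225 without Control 1. The cause of these shifts was not tested. Genes under 1 CPM, of which 14 of 751 were called, are limited by depth.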

Other observations

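Antioxidant enzymes gave 4 rises (9.3%, beside 3.66% of all genes) and 0 falls among 43 genes, with a median of -0.01 log2. In refits without 1 library the rises numbered between 2 without Control 1, Control 2 or Control 3 and 3 without Control 4, Control 5, HFpEF-scr 1, HFpEF-scr 2, HFpEF-scr 3 or HFpEF-scr 4. Besides Cat, Sod1, the cytosolic superoxide dismutase, rose by 0.22 ± 0.05 (adjusted p = 0.0111) log2 and kept its call in all settings but the fold minimum. Of 31 genes of autophagy and the lysosome 2 rose (6.45%) and 3 fell (9.68%), beside 3.66% and 3.70% of all genes. Among the falls was that of Ulk1, the kinase that starts autophagy. It was at 152, 177, 179, 154 and 176 CPM in the controls and 140.3, 135, 126 and 132 CPM in HFpEF-scr, a log2 change of -0.33 ± 0.06 (adjusted p = 0.00556). Without 1 library the rises of that list numbered between 0 without Control 2 or Control 3 and 2 without HFpEF-scr 3 and the falls between 1 without Control 3, Control 5, HFpEF-scr 2 or HFpEF-scr 4 and 3 without Control 4 or HFpEF-scr 1. Of 235 solute carriers 13 rose and 19 fell (5.53% and 8.09%, beside 3.66% and 3.70% of all genes). Rises among the carriers numbered between 6 without HFpEF-scr 2 or HFpEF-scr 4 and 15 without HFpEF-scr 1. Slc6a17, a transporter of neutral amino acids, was at 6.93, 9.42, 8.09, 8.89 and 9.00 CPM and 5.07, 4.23, 4.03 and 4.61 CPM, a log2 change of -0.91 ± 0.11 (adjusted p = 0.000162) without overlap of the groups. Slc25a13, the aspartate and glutamate carrier of mitochondria, changed by -0.31 ± 0.06 (adjusted p = 0.00358) log2. Aldh1l1, a folate enzyme, was at 4.64, 8.61, 7.83, 6.33 and 6.41 CPM in the controls and 3.03, 4.99, 3.39 and 3.76 CPM in HFpEF-scr, a log2 change of -0.82 ± 0.18 (adjusted p = 0.0152), and its call was lost in 1 of 11 other settings (adjusted p up to 0.0650, with the immediate early covariate).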
